A study of Mus musculus with 32 samples.

Results

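The miR-181 family comprised 10 of the 870 rows of a normalized microRNA (miRNA) table from mouse mesenteric artery: every row with the base name miR-181a, miR-181b, miR-181c or miR-181d, from either arm of its precursor. All 10 rows are accounted for below, and 6 of them passed the filter on low values (8 or more libraries at a value of 1 or above), as did 354 of all 870 rows. Mesenteric arteries, small resistance arteries of the gut, came from male mice aged 10 to 12 weeks when tamoxifen began. Control mice (ieCre) express a Cre recombinase that tamoxifen induces and the Tie2 promoter drives in endothelium, and ieET-1 mice were studied for overexpression of endothelin-1, a vasoconstrictor peptide. Both genotypes, controls included, received 5 daily tamoxifen injections under the skin, each of 1 mg/kg. Short term means death 16 days after this treatment and long term means 3 months after it, so that exposure time and the age of the mouse cannot be told apart. Small RNA libraries with values came from 7 control mice and 8 mice of the ieET-1 genotype at each of the times, 30 in all. Each had its own animal number. The 2 labelled samples without values are both controls, from ieCre short term and ieCre long term.

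miRNAs are short RNAs cut from hairpin precursors, and an Argonaute protein keeps one arm as the guide that lowers translation and stability of target mRNAs. Targets are found mainly through the seed, bases 2 to 8 of the guide, so members with the same seed can share many targets. In endothelium, miR-181b is known as a brake on inflammatory signalling: it represses Kpna4, an importin that carries NF-kB into the nucleus. miR-181a is best known from lymphocytes, where it tunes the sensitivity of the T cell receptor.

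The 4 mature 5p arms are shown because one seed unites them while a few bases outside it set them apart (RefSeq, GRCm38.p6, 5′ to 3′, seed in capitals).
miR-181a-5p: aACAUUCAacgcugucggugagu
miR-181b-5p: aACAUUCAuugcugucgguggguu
miR-181c-5p: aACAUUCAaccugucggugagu
miR-181d-5p: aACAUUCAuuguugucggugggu
The names of 693 of the 870 rows matched a RefSeq mature miRNA, including all 10 family rows, and among the matched rows no miRNA outside the family had this seed. Counted from 1 at the 5′ end, miR-181b-5p and miR-181d-5p differed over their 23 shared positions by the single substitution C12U. miR-181a-5p and miR-181b-5p differed over 23 positions by A9U, C10U and A21G, and miR-181a-5p and miR-181c-5p were 1 edit apart. The sources used here do not give how the authors assigned a read that fitted several rows, so small differences between members this close are uncertain.

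The opposite arms carry other seeds, shown for the pair that passed the filter.
miR-181a-1-3p: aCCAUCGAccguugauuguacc
miR-181c-3p: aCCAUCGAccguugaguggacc
These arms had the same seed as each other and differed over 22 positions by U16G and U19G.

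The family comes from 6 precursors in 3 clusters. Mir181a-1 and Mir181b-1 lie on chromosome 1, plus strand, at chr1:137966455-137966541 and chr1:137966639-137966718, with 97 bases between them. In GENCODE M21 both overlap an exon of the long non-coding RNA A430106G13Rik on the same strand. Mir181a-2 (chr2:38852735-38852810) and Mir181b-2 (chr2:38853830-38853918), 1019 bases apart on the plus strand of chromosome 2, lie within an intron of Nr6a1, which is transcribed from the other strand. Mir181c (chr8:84178873-84178961) and Mir181d (chr8:84178716-84178787), 85 bases apart on the minus strand of chromosome 8, lie within an intron of Nanos3 on the same strand. RefSeq gives the same mature miR-181a-5p at both miR-181a precursors and the same miR-181b-5p at both miR-181b precursors, so reads of these rows cannot be assigned to chromosome 1 or 2.

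The libraries held 1820166 to 35531345 miRNA reads, and 4 of 30 held fewer than 5000000. The libraries labelled ieCre short term 8 and ieET-1 short term 258 were nearly identical although their genotypes differ. Their Pearson r on log2(value + 1) was 0.9999, and their chi-square per degree of freedom was 19.6, against 209 for the next closest of 435 pairs. They were kept. Without both, no member was called in any of the 5 comparisons of the main test, as with them. Values without both stand beside some, not all, of the short-term, time, share and range results below. Animal numbers fell into ranges: the short-term groups held mice below 1000 (4 ieCre and 4 ieET-1) and mice in the 8000s or 9000s (3 and 4), and the long-term groups held the 8000s (3 ieCre and 6 ieET-1) and the 9000s (4 and 2). What these ranges stand for is not given in the labels. Marker miRNAs of smooth muscle passed the filter in 4 of 4 rows and those of endothelium in 5 of 6, and endothelin-1 mRNA was not measured by these libraries, so the genotype labels were not checked against it.

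miR-181a-5p was the dominant member. It held 91.5% of all family reads over the 30 libraries, and its mean value ranked 10 among the 870 rows. Levels are the authors' normalized values, which are read counts divided by a library size. In ieCre short term the 7 libraries ranged from 2706 to 22114 (median 8379), and in ieET-1 short term the 8 libraries ranged from 4748 to 18829 (median 11566). At long term the ranges were 8255 to 18478 in ieCre (median 11457) and 5627 to 14928 in ieET-1 (median 8449). All 4 groups overlapped, and the lowest and highest libraries of the series, animals 10 and 932, were both ieCre short term.

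miR-181b-5p, the member studied most in endothelium, held 6.22% of family reads and ranked 42. Its values ran from 296 to 1796 in ieCre short term (median 556), from 301 to 1229 in ieET-1 short term (median 871), from 469 to 1040 in ieCre long term (median 598) and from 349 to 1171 in ieET-1 long term (median 501). These groups overlapped as well. At short term the 4 ieET-1 mice below 1000 had 765, 1226, 1229 and 977, and the 4 in the 8000s had 1029, 433, 308 and 301. The 4 ieCre mice below 1000 had 955, 320, 806 and 1796, and the other 3 had 296, 556 and 310. Most mice below 1000 were higher, but the ranges of animal number overlapped in both genotypes.

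The members from chromosome 8 were lower. miR-181c-5p held 1.47% of family reads, ranked 70, and had short-term means of 152 ± 42.1 (SD, n = 7) in ieCre and 194 ± 38.3 (n = 8) in ieET-1. Its long-term means were 162 ± 50.5 (n = 7) and 143 ± 44.1 (n = 8). miR-181d-5p held 0.522%, ranked 99, and had means of 65.9 ± 30.4, 68.8 ± 15.6, 60.7 ± 6.53 and 52.0 ± 12.4 in the same order. The order miR-181a-5p, miR-181b-5p, miR-181c-5p, miR-181d-5p held in the group medians of all 4 groups. The rows were compared as reads per miRNA, and small RNA libraries can recover miRNAs of different sequence unequally.

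Among the 3p arms, miR-181a-1-3p had 15007 reads and miR-181c-3p 3709, each with reads in all 30 libraries. Per 1000 reads of miR-181a-5p there were 3.90 ± 2.51 (SD, n = 30) reads of miR-181a-1-3p. Per 1000 reads of miR-181c-5p there were 44.9 ± 21.4 reads of miR-181c-3p, so the opposite arm was a larger part of the miR-181c pair than of the miR-181a pair. The remaining 3p rows did not pass the filter: miR-181b-1-3p had 80 reads in 24 libraries, miR-181b-2-3p 22 reads in 15, miR-181a-2-3p 3 reads in 2 and miR-181d-3p 3 reads in 3. A count of 0 allows up to 3 reads, which was a value of 0.0535 in the library with the smallest value per read and 1.44 in that with the largest, for counting error only. Of the 3p arms that tell the miR-181a precursors apart, the one from Mir181a-1 on chromosome 1 therefore made up nearly all reads, 99.6% to 100% in each library.

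**Figure D1:**
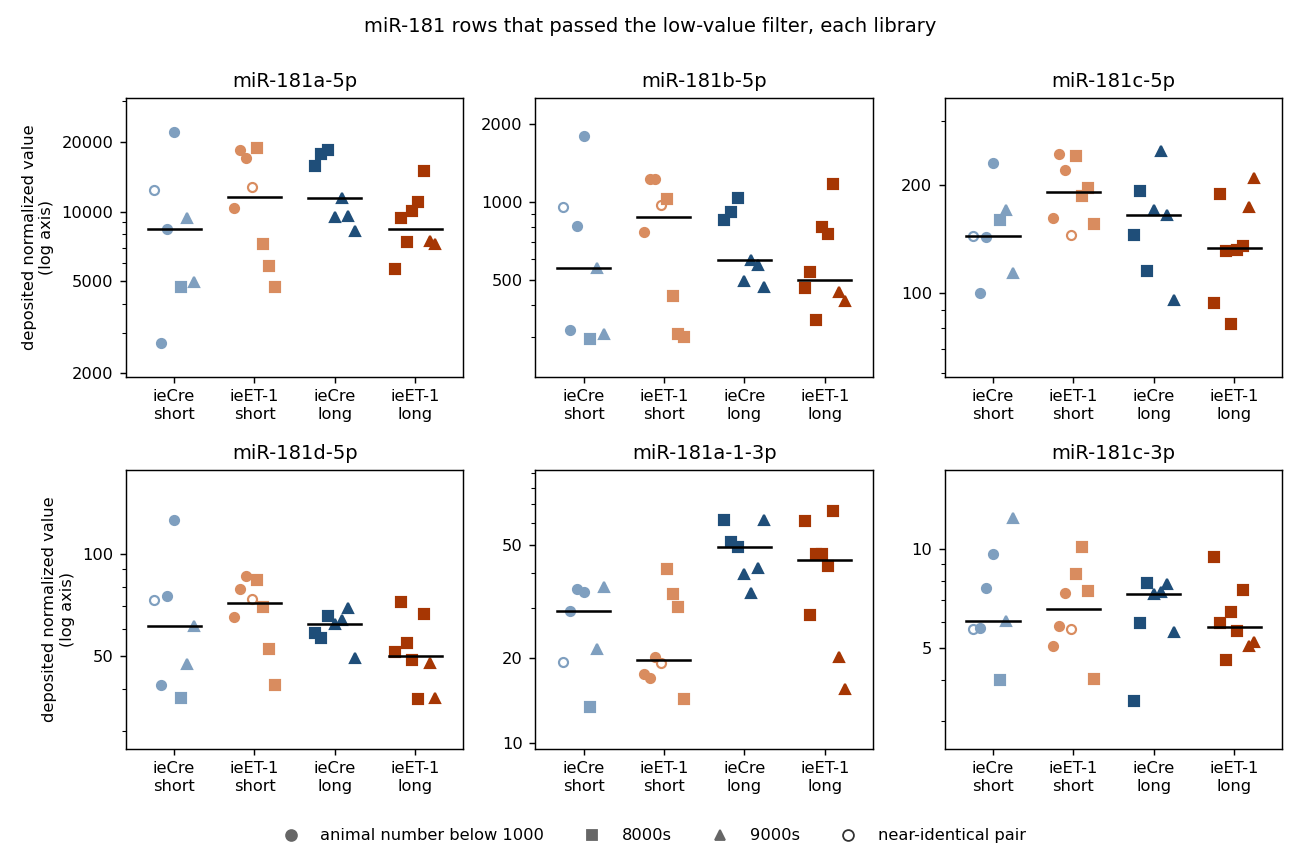
Deposited normalized value (log axis) of the 6 rows that passed the filter, 1 point per library, in the 4 groups, with symbols for the range of animal number, open points for the near-identical pair and a line at the median. The groups overlap in all 6 panels, and at short term most miR-181b-5p values of mice below 1000 lie above those of the other mice, with overlap.

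The genotype comparison asked whether endothelin-1 overexpression was accompanied by a different level of these miRNAs. At short term none of the 6 tested members passed (limma, Benjamini-Hochberg adjusted over 354 miRNAs), and neither did any other miRNA (0% called). In the fit miR-181a-5p was 0.49 higher in ieET-1 on the log2(value + 1) scale (SE 0.35, adjusted p = 0.990, 95% interval -0.23 to 1.21), and miR-181c-5p 0.37 higher (SE 0.22, adjusted p = 0.990). The miR-181a-5p difference was 0.24 without ieCre short term 10 and 0.75 without ieCre short term 932, and without the near-identical pair it was 0.57 (limma adjusted p = 0.980). In mice below 1000 miR-181a-1-3p had a log2 difference of -0.62 (4 ieCre and 4 ieET-1, limma adjusted p = 0.469). In the other short-term mice it had 0.34 (3 and 4, adjusted p = 0.787). The median difference of the 6 members was 0.18, beside -0.04 over all 354. No member had an unadjusted p below 0.05, against 9 of 354 miRNAs.

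At long term the fitted differences of all 6 members were below 0, with a median of -0.24 beside -0.01 over all tested miRNAs, and again none passed (0% of all called). miR-181a-5p was 0.50 lower in ieET-1 (log2 difference -0.50, SE 0.35, adjusted p = 0.861, 95% interval -1.21 to 0.22). Within the 8000s the log2 difference of miR-181a-5p was -0.89 (3 ieCre and 6 ieET-1, limma adjusted p = 0.244), and within the 9000s it was -0.38 (4 and 2, limma adjusted p = 0.641). miR-181a-1-3p had -0.19 within the 8000s (adjusted p = 0.799) and -1.23 within the 9000s (adjusted p = 0.162). The ranges did not all go 1 way: miR-181c-3p had 0.20 within the 8000s, and miR-181c-5p had 0.24 within the 9000s. No member had an unadjusted p below 0.05, against 20 of 354.

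The difference of the genotype effect between the times (long minus short term) was also called for no member and for no miRNA (0%). miR-181a-5p had the most negative value, -0.98 (SE 0.50, adjusted p = 0.602, 95% interval -2.0 to 0.03), followed by miR-181c-5p with -0.55 (SE 0.31, adjusted p = 0.602). On recovered whole reads, edgeR's quasi-likelihood test and DESeq2 likewise called 0% of 354 miRNAs in each of these 3 comparisons, and no member had an unadjusted p below 0.05 with either.

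**Figure D2:**
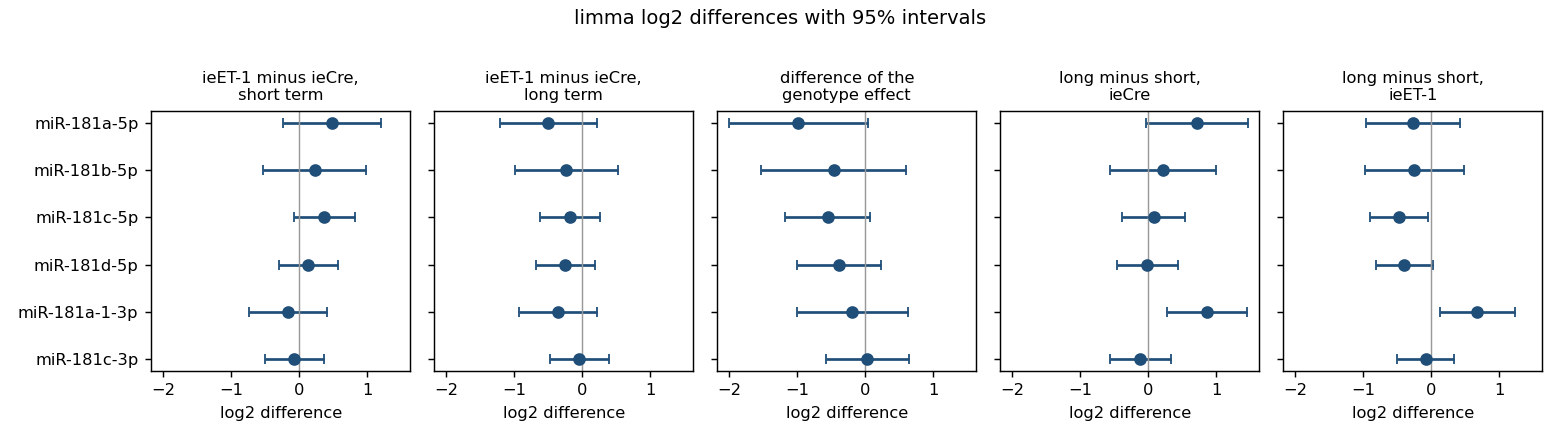
limma log2 differences with 95% intervals for the 6 tested rows in the 5 comparisons. The intervals include 0 in all genotype panels. Those of miR-181a-1-3p lie above 0 in both time panels, and that of miR-181c-5p lies below 0 between times in ieET-1.

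Between times within a genotype no member passed, and the smallest p among the members was that of a minor arm in both genotypes. miR-181a-1-3p had values of 19.4, 29.4, 35.0, 34.3, 13.4, 21.5 and 35.5 in ieCre short term and of 61.5, 51.4, 49.2, 39.6, 33.9, 41.6 and 61.2 in ieCre long term. Most long-term libraries lay above the short-term ones, with a narrow overlap. The fitted log2 difference was 0.86 (SE 0.29), a 1.82-fold higher level, with limma adjusted p = 0.0608, and in ieET-1 it was 0.68 (SE 0.27, adjusted p = 0.140). Neither passed the threshold of 0.05, while 7.91% of all miRNAs were called in ieCre and 5.93% in ieET-1. Without the near-identical pair the differences were 0.80 (limma adjusted p = 0.111) and 0.64 (adjusted p = 0.231).

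The call for miR-181a-1-3p in ieCre depended on the test. It passed with edgeR (log2 difference 1.01, adjusted p = 0.0348, with 8.47% of miRNAs called) and with DESeq2 (0.98, adjusted p = 0.0147, with 12.4% called). In ieET-1 it passed with DESeq2 (0.80, adjusted p = 0.0378, with 13.3% called) and not with edgeR, which called 10.7% of miRNAs there. With limma in ieCre it passed with median-ratio scaling (adjusted p = 0.0307, with 9.6% of miRNAs called), TMM scaling (0.0451, with 9.04%), only the groups compared (0.0454, with 6.21%) and a term for the range of animal number (0.0489, with 20.1%). With array weights in ieET-1, which called 27.4% of miRNAs, miR-181a-1-3p passed as higher (log2 difference 0.88), and miR-181c-5p (-0.51) and miR-181d-5p (-0.48) as lower at long term. Over the 46 settings in ieCre, the main one included, its adjusted p ranged from 0.0147 to 0.537. When the libraries were scaled to all miRNA reads, the value turned to -0.18 in ieCre, where the median of all miRNAs also moved, from -0.13 to -0.93. Relative to that median it was 0.75. With that scaling 60.2% of all miRNAs were called in ieCre, each of them lower at long term, among them miR-181c-3p (-1.02), miR-181c-5p (-0.998) and miR-181d-5p (-1.08).

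The value of miR-181a-1-3p moved with the library itself. Its Pearson r with log2 of the reads was -0.65 over 30 libraries (-0.65 on residuals from the group means), and 5 of the 354 tested miRNAs, this one included, had a value that low. A normalization factor was worked out for each library from the sum of its deposited values. Each value is in effect reads divided by total reads and by this factor, so the value is not independent of either. The r of miR-181a-1-3p with log2 of this factor was -0.83, and the other members ran from -0.30 (miR-181a-5p) to 0.25 (miR-181c-5p). Over all 354 tested miRNAs the median r with log2 of the reads was 0.06. At short term the medians of the factor were 1.44 in ieCre and 1.46 in ieET-1, and at long term 0.737 and 0.824. With log2 of the reads as a term, an alternative chosen after the data were seen, the difference in ieCre was 0.84 (limma adjusted p = 0.0175, with 9.89% of miRNAs called) and in ieET-1 0.35 (adjusted p = 0.388). The part of the normalization factor in this result was not tested.

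**Figure D3:**
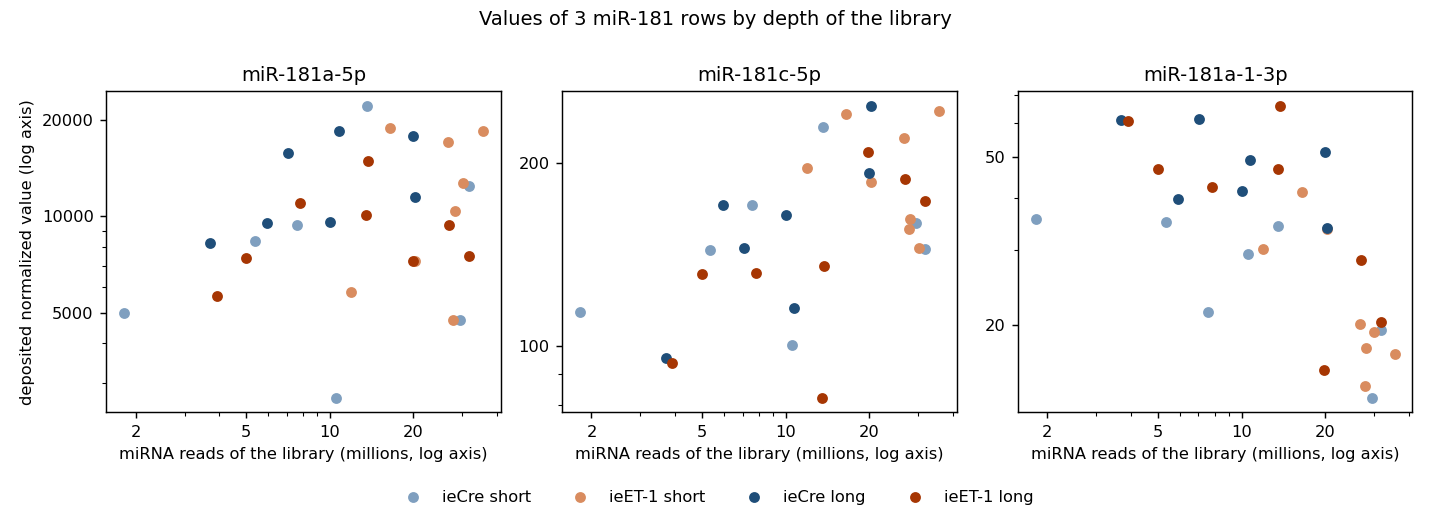
Deposited value of 3 members against the miRNA reads of the library (both axes logarithmic), coloured by group. miR-181a-1-3p falls with depth (r = -0.65 on the log2 scale), miR-181c-5p rises (r = 0.55) and miR-181a-5p shows a weaker rise (r = 0.26).

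The other members did not pass either. miR-181a-5p was 0.72 higher on the log2 scale at long term in ieCre (SE 0.36, adjusted p = 0.205) and 0.27 lower in ieET-1 (log2 difference -0.27, SE 0.34, adjusted p = 0.644). Without the near-identical pair its difference in ieCre was 0.84 (limma adjusted p = 0.170). miR-181b-5p had a log2 difference of 0.21 in ieCre (SE 0.38, adjusted p = 0.716) and -0.25 in ieET-1 (SE 0.36, adjusted p = 0.688). Without the mice below 1000, found only at short term, it had 0.86 in ieCre (3 and 7 libraries, limma adjusted p = 0.0963). Within the 8000s of ieET-1 it had 0.48 (4 and 6 libraries, adjusted p = 0.489). In the same splits miR-181a-5p had 1.03 in ieCre (adjusted p = 0.0826) and 0.25 in ieET-1 (adjusted p = 0.713). miR-181c-5p had a log2 difference of -0.47 in ieET-1 (SE 0.21, adjusted p = 0.178) and 0.08 in ieCre, and miR-181d-5p -0.40 in ieET-1 (SE 0.21, adjusted p = 0.229). The medians over the 6 members were 0.14 in ieCre and -0.26 in ieET-1, beside -0.13 and -0.09 over all 354. With a term for the range of animal number, miR-181a-5p passed in ieCre (log2 difference 1.16, adjusted p = 0.0365), where 20.1% of all miRNAs were called.

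The composition of the family was measured as the share of each 5p arm in the reads of the 4 5p arms together. A share is formed within a library, so it does not depend on how libraries are scaled, but the 4 shares sum to 100% and cannot move independently. Each of 6 shares (the 4 5p arms, all 3p arms among the 10 rows, and miR-181a-1-3p among the miR-181a 3p arms) was compared in 4 pairs of groups, which gave 24 exact two-sided permutation tests with Benjamini-Hochberg adjustment over the 24. The last of these shares was 100% in 28 libraries, so its 4 tests could not pass, and they still count in the adjustment. Of the 24 tests, 3 passed, and each of the 3 used the same 7 ieCre long-term libraries, so they are not independent of each other.

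In ieCre mice miR-181a-5p took a larger and miR-181b-5p a smaller share at long term. The share of miR-181a-5p was 91.4, 85.4, 89.1, 91.1, 90.6, 92.4 and 91.1% in the short-term libraries and 93.7, 93.9, 93.8, 92.9, 92.6, 92.2 and 93.1% in the long-term ones. Only the highest short-term library reached into the long-term range. The means were 90.2% ± 2.31 and 93.2% ± 0.637 (SD, n = 7 each, exact permutation p = 0.00117, adjusted p = 0.0140). The share of miR-181b-5p fell from 7.12% ± 1.74 to 5.08% ± 0.279 (exact permutation p = 0.00117, adjusted p = 0.0140), lower than the short-term mean in 7 of 7 long-term libraries. This is a fall relative to the other 5p arms. On the authors' scale the fitted level of miR-181b-5p had a log2 difference of 0.21 (SE 0.38, limma adjusted p = 0.716). Without the mice below 1000 that difference was 0.86 (3 and 7 libraries, limma adjusted p = 0.0963).

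In ieET-1 mice no share passed between times. miR-181a-5p made up 91.6% ± 0.834 at short term and 91.8% ± 0.865 at long term (n = 8 each, exact permutation p = 0.682, adjusted p = 0.947), and miR-181b-5p 5.95% ± 0.796 and 6.08% ± 1.15. Whether the time difference itself differs between the genotypes was not tested.

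At long term the share of miR-181a-5p was lower in ieET-1 than in ieCre. The ieET-1 libraries had 90.2, 92.2, 93.3, 91.5, 92.3, 91.6, 91.8 and 91.7%, below the ieCre mean of 93.2% in 7 of 8, and the groups overlapped. The difference was -1.37 percentage points (exact permutation p = 0.00451, adjusted p = 0.0361). miR-181b-5p was 5.08% ± 0.279 in ieCre and 6.08% ± 1.15 in ieET-1, a difference that did not pass (exact permutation p = 0.0525, adjusted p = 0.252). At short term the share of miR-181a-5p was 1.47 percentage points higher in ieET-1 and did not pass (exact permutation p = 0.0898, adjusted p = 0.305). That difference was 0.679 without ieCre short term 10, 1.841 without ieCre short term 9955 and 1.705 without the near-identical pair. Of the marker miRNAs of epithelium, 8 of the 9 tested rows had a value above 0 for ieET-1 against ieCre at long term (median log2 difference 0.61), and none passed. The summed epithelial rows had a median of 1020 in ieET-1 long term and 1113 in ieCre long term. Their highest values were 11095 and 1385. The part of these markers in the long-term share was not tested.

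**Figure D4:**
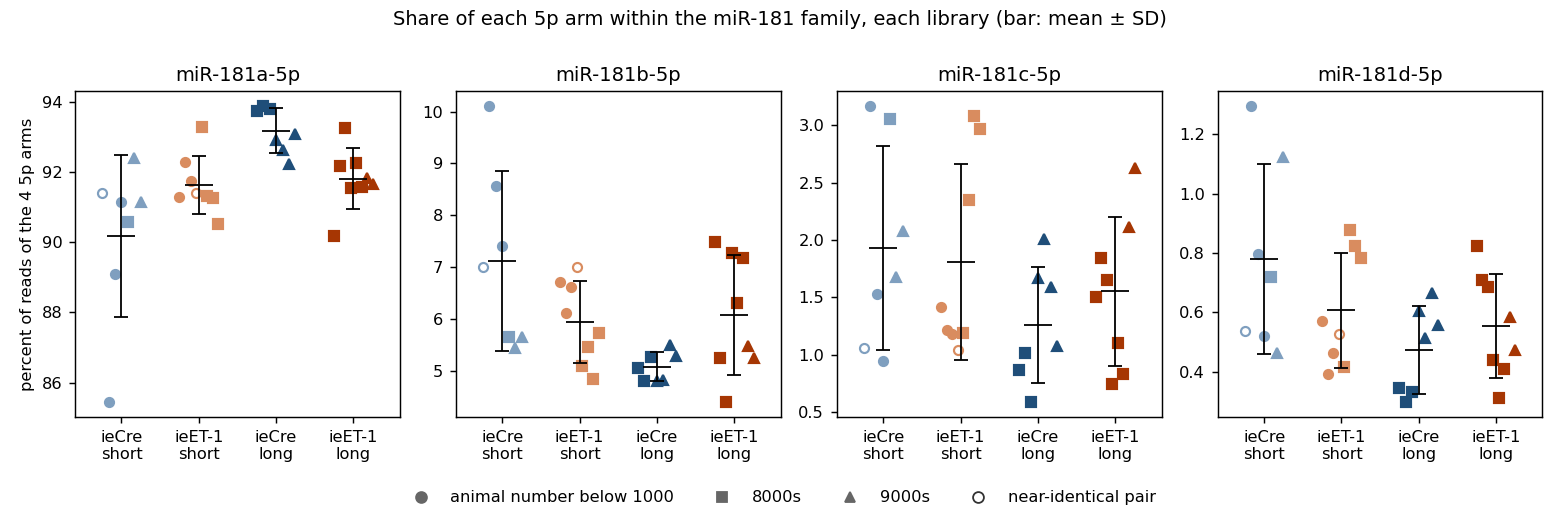
Share of each 5p arm in the reads of the 4 5p arms (percent), 1 point per library, with the mean ± SD of each group and symbols for the range of animal number. In ieCre the miR-181a-5p share is 90.2% at short term and 93.2% at long term, and among ieCre mice those below 1000 carry the highest miR-181b-5p shares.

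The ranges of animal number bear on these shares, because mice below 1000 are found only among the short-term groups. In ieCre short term the miR-181b-5p share was 7.0, 10.1, 8.57 and 7.40% in the mice below 1000 and 5.66, 5.45 and 5.66% in the others. Without the mice below 1000, the miR-181b-5p share fell by 0.507 percentage points with time in ieCre (3 and 7 libraries, exact permutation p = 0.0250), whereas over all ieCre libraries it fell by 2.04. The miR-181a-5p share rose by 1.81 in place of 3.015 (exact permutation p = 0.0167). In the same split the miR-181c-5p share fell by 1.01 (exact permutation p = 0.0333), more than that of miR-181b-5p, and over all ieCre libraries its difference of -0.672 did not pass (exact permutation p = 0.114, adjusted p = 0.305). Within the 8000s of ieET-1 the miR-181c-5p share fell by 1.12 with time (4 and 6 libraries, exact permutation p = 0.0286). At long term the miR-181a-5p share was lower in ieET-1 within the 8000s (3 ieCre and 6 ieET-1, difference -1.97 percentage points, exact permutation p = 0.0238) and within the 9000s (4 and 2, difference -0.983, exact permutation p = 0.0667, the smallest p that this split allows). The p-values within ranges are not adjusted.

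The calls on shares also rested on small groups. Without the near-identical pair, both time differences in ieCre kept an adjusted p of 0.0140. Leaving out single libraries raised the adjusted p above 0.05 for the miR-181a-5p share in ieCre (without ieCre long term 8088, 8089, 8149 or 9491, 0.0559 each). For the miR-181b-5p share it did so without any 1 of the 7 ieCre long-term libraries (0.0559 to 0.0853). For the long-term genotype difference it did so without ieCre 8088, 8089, 8149, 9485, 9486 or 9491, or ieET-1 8134, 8135, 8150, 8152, 9489 or 9490 (0.0513 to 0.0853). The differences kept their sign in each case. The share of miR-181a-5p had a Pearson r of -0.003 with log2 of the reads and of -0.52 with log2 of the normalization factor over 30 libraries, and the part of that factor was not tested.

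With genotype as a term, the range of animal number itself was compared at each time. At short term miR-181b-5p was lower in mice of the 8000s and 9000s than in those below 1000 (log2 difference -1.17, SE 0.33, limma adjusted p = 0.0131), the single member called, where 27.7% of all miRNAs were. Without the near-identical pair its difference was -1.14 (limma adjusted p = 0.0444, with 19.2% called). miR-181a-5p had -0.72 (adjusted p = 0.168) and miR-181d-5p -0.46 (adjusted p = 0.131). At long term no member passed between the 9000s and the 8000s, where 7.34% of all miRNAs were called. The lowest adjusted p was 0.0558 for miR-181a-1-3p, with a log2 difference of -0.80.

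The summed family made up 1.38% ± 0.867 of all miRNA reads in ieCre short term, 1.75% ± 1.10 in ieET-1 short term, 0.908% ± 0.252 in ieCre long term and 0.897% ± 0.309 in ieET-1 long term. On the authors' scale the same sums were 10228 ± 7155, 12991 ± 6162, 13956 ± 4494 and 10015 ± 3183. The order of the groups thus differs between the scales: as a percentage of reads the long-term groups are lower, and on the authors' scale ieCre long term is the highest. miR-143-3p, the abundant smooth muscle miRNA, rose in ieCre between the times (log2 difference 1.43, adjusted p = 0.0167), as the 1 called of 4 tested smooth muscle rows. The summed smooth muscle rows ran from 195660 to 397680 in ieCre short term, 210990 to 700250 in ieET-1 short term, 385950 to 2254700 in ieCre long term and 195790 to 1222900 in ieET-1 long term. Its part in the family's percentage was not tested.

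Pairs of members varied together to different degrees, whether or not they came from the same cluster. Over the 30 libraries miR-181a-5p and miR-181b-5p had a Pearson r of 0.91 on log2(value + 1) (0.94 on residuals from the group means), the highest of the 15 pairs among the tested rows. miR-181c-5p and miR-181d-5p, also neighbours in the genome, had 0.43, which is lower than miR-181b-5p with miR-181d-5p (0.70), which lie on different chromosomes and differ by C12U. miR-181a-1-3p had 0.22 with miR-181a-5p, its own other arm, and miR-181c-3p had 0.04 with miR-181c-5p. The libraries share depth and normalization, so these are descriptions.

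Of the tested miRNAs outside the family, the most similar to miR-181a-5p over the 30 libraries were miR-676-3p (Pearson r 0.82, or 0.79 on residuals from the group means), miR-8h-5p_87 (0.75 and 0.76), miR-423-3p (0.75 and 0.83), let-7a-5p (0.74 and 0.73) and let-7c-5p (0.73 and 0.75). For miR-181b-5p they were miR-540-3p (0.84 and 0.86), miR-676-3p (0.79 and 0.80), let-7c-5p (0.78 and 0.78), let-7d-3p (0.76 and 0.78) and miR-1839-5p (0.75 and 0.80). miR-676-3p and let-7c-5p stood among the 5 nearest of both members. miR-8h-5p_87, miR-540-3p and miR-423-3p were low rows, with median values of 1.11, 2.57 and 4.85. A value of 1 stood for 3 to 57 reads, so the r of these rows is less certain.

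Because miR-181b is known for its effect on NF-kB, miRNAs tied to that pathway were read from the same fits. Of the 17 rows of this list, 13 were tested, and none passed between genotypes at either time. The smallest p at short term was that of miR-21a-5p, an abundant miRNA of injured vessels (log2 difference -0.40, adjusted p = 0.990), and at long term that of miR-31-5p (0.71, adjusted p = 0.688). For the difference of the genotype effect it was miR-21a-3p (1.38, adjusted p = 0.602). Between times miR-125b-1-3p fell in ieCre (log2 difference -0.95, adjusted p = 0.0108) and in ieET-1 (-0.74, adjusted p = 0.0294), the 1 list member called in each. The list medians lay between -0.08 and 0.16 in the 5 comparisons.

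Marker miRNAs of other cell types were read beside the family. No row of the endothelial, leukocyte, erythroid, striated muscle or adipose lists passed in any of the 5 comparisons. The smallest p in each of these lists between ieCre times was that of miR-221-5p (log2 difference 0.87, adjusted p = 0.184), miR-142-3p (-0.53, adjusted p = 0.216), miR-451a (-0.98, adjusted p = 0.199), miR-1a-3p (0.68, adjusted p = 0.284) and miR-378a-3p (0.52, adjusted p = 0.128). The list medians there were 0.13 (3 of 5 tested rows above 0) for endothelium, -0.02 (3 of 6) for leukocytes, -0.76 (0 of 3) for erythroid cells, -0.09 (1 of 3) for striated muscle and -0.22 (2 of 6) for adipose tissue, so miR-1a-3p and miR-378a-3p went against the medians of their lists. In the neural list miR-138-5p fell in ieCre between the times (-2.14, adjusted p = 0.0177), while the list median was 0.24 with 3 of 6 rows above 0. In the epithelial list miR-215-5p rose in ieET-1 (1.61, adjusted p = 0.0216), the 1 row called, and the list had 9 of 9 tested rows above 0 there (median 1.13) and 8 of 9 in ieCre (median 0.40). The epithelial row with the smallest p in ieCre, miR-194-5p, went against that median (-0.91, adjusted p = 0.0809). The summed epithelial rows ran from 344 to 1212 in ieCre short term, 338 to 847 in ieET-1 short term, 658 to 1385 in ieCre long term and 499 to 11095 in ieET-1 long term. The summed endothelial rows ran from 5836 to 38740 in ieCre short term, 6023 to 22284 in ieET-1 short term, 5538 to 14583 in ieCre long term and 8539 to 27284 in ieET-1 long term. The summed leukocyte rows ran from 143 to 372, 126 to 366, 103 to 307 and 126 to 281 in the same order. In whole arteries fewer cells of a type and less RNA per cell cannot be told apart.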

How the data were processed

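TruSeq small RNA libraries of mesenteric arteries freed of perivascular fat and veins were sequenced, per the labels' protocols. Tools named by the submitters' processing notes, without their roles, are STAR 2.3.1, edgeR 3.6.8, FastQC, R 3.2.3 and bcl2fastq 1.8.4. The sources used here do not give the build, the miRNA annotation or the handling of reads that fit several rows. The authors deposited a normalized signal for each miRNA in each library. Every value was a whole multiple of its library's smallest value (100%, within 0.001), so reads were recovered from it. Depth limits the precision of low rows: a value of 1 stood for 3 to 57 reads, depending on the library.

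Of 32 labelled samples, 30 have a column and were used, and the 2 without a column are both ieCre. Groups came from the labelled genotype and time. The main test was limma 3.58.1 in R 4.3.3, on log2(value + 1) with a trend of the variance, 4 group means in 1 fit, two-sided, Benjamini-Hochberg over the 354 miRNAs tested, and a threshold of 0.05. A log2 difference on this scale understates changes of low rows, and each library is taken as 1 mouse, so that p-values rest on the spread between mice. Shares were compared with exact permutation tests. Alternatives were other pseudocounts, filters and scalings, edgeR 4.0.16 (quasi-likelihood) and DESeq2 1.42.0 on recovered reads, array weights, fits of fewer libraries or groups, and a term for the range of animal number. A term for log2 of the reads, the shares within ranges of animal number and the range comparison without the near-identical pair were added after the data were seen. The fits were run on simulated data as a check of the code only. Those data had the same dispersion for every miRNA and no ranges of animal number.

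The miRNAs named are every family row, the 5 most like miR-181a-5p and the 5 most like miR-181b-5p, miRNAs of the same seed, and the member of each list with the smallest p. A marker name ending in a without a row was read under its older name (miR-126, miR-142). The members and lists were chosen with earlier results of these data known. Sequences and precursor positions are from RefSeq (GRCm38.p6) and overlaps from GENCODE M21; the deposited table holds no coordinates.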

Additional observations from a re-analysis of the deposited data

Results flagged for a closer look

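A sample was singled out where its gap to the nearest other sample, divided by the range of its group, exceeded Dixon's 95% critical value, which chance exceeds in about 1 of 20 groups. Of 46 groups of values, 5 did so. miR-181d-5p had a value of 126.1 in ieCre short term 932, where the other 6 libraries had 37.6 to 74.9. The 3p arms made up 0.748% of family reads in ieCre long term 9491, against 0.292% to 0.475% in the others. They made up 1.125% in ieET-1 long term 8134, against 0.264% to 0.643%. Both libraries held fewer than 5000000 reads. miR-181a-1-3p made up 99.89% of the miR-181a 3p reads in ieET-1 short term 256 and 99.64% in ieET-1 long term 9490, the only libraries with reads of miR-181a-2-3p, 1 and 2 reads. The other libraries of these groups were tied at 100%, so a single read was enough for a flag. The rate of 1 in 20 does not hold for such ties.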

How the results depend on the processing

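No paired analysis was possible because no animal number occurs in more than 1 group. No member was called between genotypes, or for the difference of the genotype effect, under any setting run. The count of members called between times in ieCre was 0, and it became 1 with median-ratio scaling, TMM scaling, edgeR, DESeq2, only the groups compared or log2 of the reads as a term, 2 with a term for the range of animal number (miR-181a-1-3p and miR-181a-5p higher, 20.1% of all miRNAs called) and 3 with scaling to all miRNA reads (miR-181c-3p, miR-181c-5p and miR-181d-5p lower, 60.2% called). In the settings with 1 it was miR-181a-1-3p. Leaving out 1 library gave 0 to 1 (1 without ieCre short term 932 or 9957, ieCre long term 9486 or ieET-1 long term 9490, miR-181a-1-3p each time, with 8.5% to 11.1% of all miRNAs called). In ieET-1 it became 1 with DESeq2 and 3 with array weights (miR-181a-1-3p higher, miR-181c-5p and miR-181d-5p lower, 27.4% called), and 0 to 1 without 1 library (1 without ieET-1 long term 9490, 8.78% called). Of the 24 share tests 3 passed, or 0 to 3 without 1 library: 0 without ieCre long term 8088, 8089, 8149 or 9491, and 1 without 9485 or 9486. Without 1 library the miR-181a-5p share differed by -1.58 to -1.141 points between genotypes at long term and by 2.226 to 3.389 between times in ieCre, and the miR-181b-5p share by -2.317 to -1.541. Within the 9000s the long-term difference of the miR-181a-5p share was -0.983, in a split too small for its exact test to pass.

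Signs of log2 differences that the main test did not call turned under these settings, and the cause was not tested. With scaling to all miRNA reads, which moved the median of all miRNAs by -0.80 in ieCre, -0.38 in ieET-1, -0.16 and 0.32 between genotypes at short and long term and 0.46 for the difference of effects, miR-181d-5p turned to -0.052 at short term. At long term miR-181a-1-3p turned to 0.052, miR-181b-5p to 0.184, miR-181c-3p to 0.289, miR-181c-5p to 0.236 and miR-181d-5p to 0.164. For the difference of effects miR-181a-1-3p turned to 0.405, miR-181b-5p to 0.148, miR-181c-5p to 0.057 and miR-181d-5p to 0.216. Between times in ieCre miR-181a-1-3p turned to -0.185, miR-181a-5p to -0.370, miR-181b-5p to -0.870 and miR-181c-5p to -0.998, the last called (limma adjusted p = 0.0287). With TMM scaling miR-181c-3p turned to 0.019 at short and 0.027 at long term. With log2 of the reads as a term miR-181a-1-3p turned to 0.260, miR-181b-5p to -0.012 and miR-181c-3p to 0.113 at short term, and miR-181c-3p to 0.013 at long term and -0.100 for the difference of effects. For that difference miR-181c-3p also turned with edgeR (-0.070) and DESeq2 (-0.049), and miR-181a-1-3p with array weights (0.042). Without libraries under 5000000 reads miR-181c-3p turned to 0.054 at short term, -0.158 for the difference of effects and 0.036 between times in ieCre, and miR-181d-5p to 0.035 there. miR-181d-5p in ieCre also turned with median-ratio scaling (0.064), edgeR (0.027), the range term (0.256) and without the near-identical pair (0.030). In ieET-1 miR-181a-5p (0.124) and miR-181b-5p (0.373) turned with the range term, and miR-181c-3p (0.004) with array weights. Leaving out 1 library gave miR-181c-3p -0.186 to 0.054 at short term, -0.162 to 0.006 at long term, -0.096 to 0.143 for the difference of effects and -0.228 to 0.011 in ieCre. It gave miR-181c-5p -0.035 to 0.193 and miR-181d-5p -0.127 to 0.159 in ieCre. The share of miR-181c-5p ranged from -0.306 to 0.0828 at short term, that of the 3p arms from -0.0141 to 0.128 at long term and -0.111 to 0.0460 in ieCre, and in ieET-1 that of miR-181a-5p from -0.0324 to 0.412 and of miR-181b-5p from -0.0693 to 0.371 and of miR-181a-1-3p among the miR-181a 3p arms from -0.0447 to 0.0136. The fit of only the groups compared gives no value for the difference of effects, and miR-181c-3p has none with the filter at 10. Depth limits the rows that did not pass the filter, with 0 to 11 reads a library.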
